A study of Mus musculus with 18 samples.

Results

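The 10 genes described here mark tissue-resident or alternatively activated macrophages: Mrc1, Cd163, Lyve1, Folr2, Timd4, Retnla, Clec10a, Mgl2, F13a1 and Arg1. They were measured in the adipose depots of mice with and without caspase-6, all on a fat-rich diet. They were picked by gene symbol, and all 10 were found among the 25124 genes of each count table, with the same transcript counted in every depot. The mice were C57BL/6J males on a high-fat diet (HFD) that supplied 60% of its calories as fat, which was given for 12 weeks and begun at 10 to 14 weeks of age. WT mice carried intact Casp6, and C6KO mice carried a germline knockout, so that cells other than macrophages lacked caspase-6 too. Both genotypes were littermates from heterozygous parents, and all mice were fasted for 10 hours before collection. On this diet the paper reports lower body weight, fat mass and weight of all these depots in C6KO mice. Differences between genotypes here thus go along with a difference in adiposity. RNA came from whole inguinal white (iWAT), epididymal white (eWAT) and brown (BAT) adipose tissue, with 3 libraries for each genotype in each depot and 18 in all. The question asked of these genes was how far the loss of caspase-6 went along with a different level of macrophage transcripts in each depot.

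Macrophages that live in a tissue over long periods line its vessels and take up debris, and many carry scavenger receptors and lectins that seldom appear on freshly recruited monocytes. Interleukin-4 and interleukin-13 drive alternative activation through the receptor chain IL-4Rα and the transcription factor STAT6, which turns on genes such as Retnla, Arg1 and Mgl2 in mice. In obesity, adipose tissue gains further macrophages that store lipid and surround dying adipocytes, and these carry other markers, such as Trem2 and Gpnmb.

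Positions are those of the mm10 build. Mrc1 (chr2:14229414-14332023, plus strand) encodes the mannose receptor CD206. Folr2 (chr7:101839988-101845331, minus strand) encodes folate receptor β. Cd163 (chr6:124304651-124330527, plus strand) encodes the receptor for haptoglobin-bound haemoglobin, Lyve1 (chr7:110850607-110862953, minus strand) a hyaluronan receptor, and Timd4 (chr11:46810799-46844333, plus strand) a receptor for phosphatidylserine on dying cells. Clec10a (chr11:70166623-70170836, plus strand) and Mgl2 (chr11:70130357-70137542, plus strand) are neighbouring genes for galactose-binding lectins. Retnla (chr16:48842609-48844461, plus strand) encodes the secreted protein RELMα, Arg1 (chr10:24915207-24927470, minus strand) the enzyme arginase 1, and F13a1 (chr13:36867178-37049213, minus strand) the A chain of coagulation factor XIII. Clec10a and Mgl2 share sequence: 16.7% of all stretches of 50 bases in the Clec10a transcript also occur in Mgl2, so part of their reads cannot be assigned with certainty. Exons of Folr2 overlap a gene model on the opposite strand, Gm10602, over 74.6% of their bases, and the strand used in counting is not given in the sources used here, so reads of both models cannot be told apart.

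RefSeq promoter windows on GRCm38.p6, which run from 250 bases before to 50 bases after a transcription start, were on hand for 7 of the 10 genes; Lyve1, Clec10a and Arg1 had no entry. The windows at the start of the counted transcript are shown for Mrc1 and Folr2, the genes whose C6KO libraries lay under all WT libraries in every depot, and for Retnla, the gene with the highest mean level per exon length in WT mice. Capitals mark matches to 2 motifs, searched on both strands: the STAT6 site TTCNNNNGAA and the core GAGGAAGT bound by PU.1, the factor that directs macrophage development.
Mrc1 (chr2:14229164-14229463, plus strand): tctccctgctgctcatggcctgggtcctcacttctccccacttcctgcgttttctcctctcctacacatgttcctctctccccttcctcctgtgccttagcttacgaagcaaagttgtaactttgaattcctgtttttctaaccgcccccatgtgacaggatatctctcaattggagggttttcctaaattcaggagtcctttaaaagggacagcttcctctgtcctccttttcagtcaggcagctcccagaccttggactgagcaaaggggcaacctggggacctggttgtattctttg
Folr2 (chr7:101845282-101845581, minus strand): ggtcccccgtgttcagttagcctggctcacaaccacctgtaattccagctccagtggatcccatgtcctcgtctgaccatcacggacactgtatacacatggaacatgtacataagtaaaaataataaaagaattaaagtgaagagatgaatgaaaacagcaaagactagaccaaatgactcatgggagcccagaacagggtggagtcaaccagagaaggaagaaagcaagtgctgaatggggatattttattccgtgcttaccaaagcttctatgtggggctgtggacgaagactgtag
Retnla (chr16:48842359-48842658, plus strand): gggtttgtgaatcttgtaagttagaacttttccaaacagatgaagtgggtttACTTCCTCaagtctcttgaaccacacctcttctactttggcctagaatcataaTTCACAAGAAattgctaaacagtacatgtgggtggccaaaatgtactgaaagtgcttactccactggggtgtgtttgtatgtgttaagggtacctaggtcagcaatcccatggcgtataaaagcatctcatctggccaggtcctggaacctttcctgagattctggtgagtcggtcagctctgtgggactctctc

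The Retnla window held a STAT6 match, TTCACAAGAA, that begins at position -145 from the start, and a PU.1 match on the minus strand, written ACTTCCTC on the plus strand, at position -198. Neither motif was found in the Mrc1 or the Folr2 window. Of all 32544 RefSeq promoter windows, 6.98% held the STAT6 letters and 3.11% held the PU.1 letters. Of the windows of the other members, that of F13a1 held a PU.1 match at position 15. Absence of these letters from a window says nothing of what binds there.

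White fat libraries were the deeper ones, with 16506034 to 19043523 counts in iWAT and 16717201 to 19139694 in eWAT. BAT libraries had 7803108 to 12428683 counts, and edgeR's biological coefficient of variation was 0.216, 0.191 and 0.32 (iWAT, eWAT, BAT). BAT values are thus the least precise. Levels are given as CPM, the counts of a gene scaled to library size after TMM normalisation. Casp6, the targeted gene, had means of 18.9, 18.5 and 16.1 CPM in WT (iWAT, eWAT, BAT) and of 6.59, 5.12 and 5.59 CPM in C6KO, and C6KO libraries lay under WT libraries in each depot; edgeR called it in eWAT (adjusted p = 0.0132) but not in iWAT (0.0751) or BAT (0.0671), while DESeq2 called it in all 3. Ucp1, the defining gene of brown fat, was at 4470 CPM or above in each BAT library and at 5.53 CPM or below in each white fat library. Of the 16 genes of macrophages in general, such as Adgre1 (F4/80) and Cd68, none was at 0 in any group. A single library stood apart: their summed level in iWAT C6KO replicate 3 was 1990 CPM against 675 and 723 CPM in the other C6KO libraries and 2640 to 3080 CPM in WT. Mrc1, Folr2, Clec10a and F13a1 in iWAT are therefore given with and without that library. Unless a library is said to be left out, other iWAT values include it. C6KO replicate 3 was picked out by its macrophage level, so fits without it tend towards lower members in C6KO and are no separate support. Whether a lower level in whole tissue came from fewer macrophages or from less RNA per macrophage cannot be told apart. The labels do not say more of how the 3 libraries of a group relate, so p-values measure the spread between these libraries only.

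In WT mice, the members spanned a wide range. Levels between genes were compared per kilobase of exon, and by that measure Retnla had the highest mean in each depot. In plain CPM Mrc1 had the highest mean, at 153, 401 and 90.3 against 125, 152 and 42.3 for Retnla (iWAT, eWAT, BAT). In iWAT of WT mice, Retnla had a mean of 234 CPM per kb, followed by Folr2 at 56.1, Clec10a at 48.7, Mrc1 at 28.9, F13a1 at 23.2, Mgl2 at 10.3, Cd163 at 10, Lyve1 at 6.24, Arg1 at 1.41 and Timd4 at 0.477 CPM per kb. Along that order the libraries did not overlap between Retnla (191 to 300) and Folr2 (40.5 to 67.2), between Clec10a (38.3 to 59.3) and Mrc1 (23.9 to 31.7), between F13a1 (18.6 to 26.3) and Mgl2 (8.88 to 11.5), or between Lyve1 (4.49 to 8.55), Arg1 (0.811 to 2.44) and Timd4 (0.362 to 0.549). The other neighbours overlapped and cannot be ranked.

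In WT eWAT the order was Retnla at 284, Folr2 at 199, Mrc1 at 75.9, Clec10a at 64.4, F13a1 at 23.9, Cd163 at 12.3, Lyve1 at 6.71, Mgl2 at 5.24, Arg1 at 4.28 and Timd4 at 1.13 CPM per kb. Retnla ranged from 95.4 to 616 there and so could not be separated from Folr2 at 190 to 213, and Mrc1 overlapped Clec10a and Lyve1 overlapped Mgl2. In WT BAT, Retnla led at 79.0 CPM per kb, followed by Folr2 at 17.4, Mrc1 at 17.1, F13a1 at 12.5, Mgl2 at 11.1, Clec10a at 10.7, Cd163 at 4.21, Lyve1 at 4.13, Timd4 at 0.421 and Arg1 at 0.219. In BAT the libraries did not overlap between Retnla (30.0 to 158) and Folr2 (13 to 20.8), Mrc1 and F13a1, Clec10a and Cd163, or Lyve1 and Timd4, and the other neighbours cannot be ranked. In C6KO the place of Folr2 varied by depot: it came after Clec10a in iWAT (22.3 against 27.9 CPM per kb), before Retnla in eWAT (128 against 115) and after F13a1, Mgl2 and Mrc1 in BAT (7.88 against 8.73 to 10.8), and the libraries of each of these pairs overlapped.

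**Figure D1:**
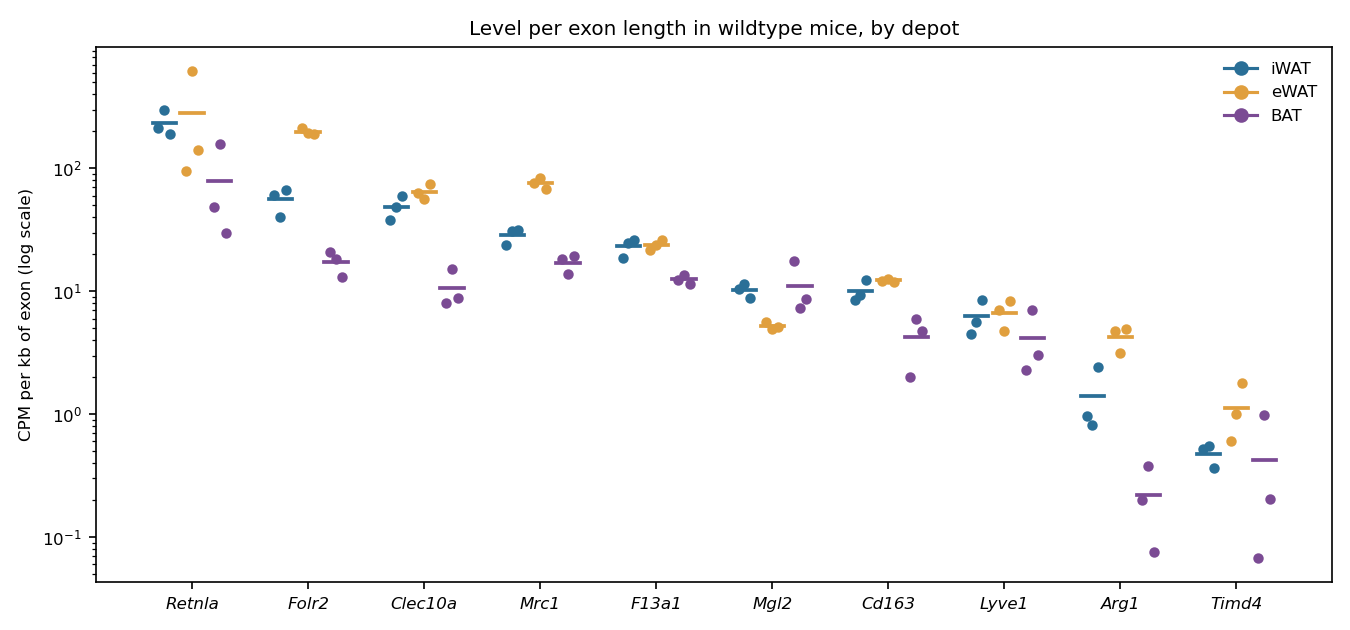
Level of each gene in WT mice, in CPM per kb of exon on a log axis; each point is 1 library, the bars are means of 3 libraries, and colours mark the depot. Folr2 and Mrc1 stood highest in eWAT, Mgl2 stood lowest there, and Mrc1, Cd163, Folr2, Clec10a, F13a1 and Arg1 stood lowest in BAT.

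The labels do not say whether depots came from the same animals, and depots were compared as separate samples. Set against iWAT, eWAT of WT mice had more Mrc1 and Folr2 and less Mgl2, and these were the 3 of 10 members called by edgeR at an adjusted p under 0.05 and a fold change of at least 1.5. Mrc1 had 126, 164 and 168 CPM in iWAT and 402, 445 and 357 CPM in eWAT, a log2 difference of 1.40 (SE 0.273, edgeR adjusted p = 0.0011). Folr2 had 65.2, 43.5 and 72.2 CPM in iWAT and 228, 209 and 204 CPM in eWAT, a log2 difference of 1.83 (SE 0.383, edgeR adjusted p = 0.00219). For both receptors every eWAT library was above every iWAT library. Mgl2 went the other way, from 16.1, 17.7 and 13.7 CPM in iWAT to 8.71, 7.62 and 7.86 CPM in eWAT, a log2 difference of -0.97 (SE 0.27, edgeR adjusted p = 0.0111). Over all 15866 genes tested, 12.8% were called higher and 12.9% lower, so 2 and 1 of 10 members are shares near the background. The 16 genes of macrophages in general were all called higher, with a median log2 difference of 1.83, while the median of the members was 0.35 and that of all genes 0.01.

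BAT of WT mice held less of most members than either white depot. Against iWAT, 6 of 10 members were called lower by edgeR and 0 higher, where 18.7% and 20.1% of all genes were. Clec10a had 56.9, 72.1 and 88.1 CPM in iWAT and 12, 22.5 and 13 CPM in BAT, a log2 difference of -2.18 (SE 0.318, edgeR adjusted p = 4.73e-05). Folr2 differed by -1.69 on the log2 scale, Cd163 by -1.24, F13a1 by -0.90, Mrc1 by -0.76 and Arg1 by -2.61, the last from 1 to 6 counts a library in BAT. Of these calls, those of Mrc1 and Arg1 did not hold in every fit with a library left out, though the estimates stayed negative. Mrc1 was not called without WT BAT replicate 1 or 2 or WT iWAT replicate 2 or 3 (-0.81, -0.62, -0.71 and -0.68, edgeR adjusted p = 0.0555, 0.105, 0.076 and 0.0866). Arg1 was not called without WT BAT replicate 1 or 3 or WT iWAT replicate 3 (-2.55, -2.20 and -1.95, edgeR adjusted p = 0.0755, 0.0999 and 0.118). Against eWAT, 6 members were lower in BAT and Mgl2 was higher, beside 23.6% and 25.0% of all genes. Folr2 showed a log2 difference of -3.52 (SE 0.418, edgeR adjusted p = 4.2e-06), Arg1 of -4.21, Clec10a of -2.58, Mrc1 of -2.15, Cd163 of -1.53 and F13a1 of -0.94, and Mgl2 of 1.08 (SE 0.274, edgeR adjusted p = 0.00294). Mgl2 was thus the only member whose WT level was lowest in eWAT by a called difference from both other depots. The members' medians were -1.07 against iWAT and -1.68 against eWAT, beside -1.21 and -3.16 for macrophage genes in general.

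C6KO libraries lay under all WT libraries for Mrc1 and Folr2 in every depot, for Cd163 in iWAT and for F13a1 in eWAT. For Lyve1 in eWAT they lay above all WT libraries. Clec10a and F13a1 had lower means in C6KO iWAT but their libraries overlapped, and Mgl2 and Retnla overlapped in every depot. By edgeR, 0 of the 10 members in iWAT, 0 of 10 in eWAT and 0 of 8 tested in BAT were called; Timd4 and Arg1 had too few counts in BAT to be tested. Over all genes, edgeR called 0.0206% lower and 0.00688% higher in iWAT, and for eWAT the shares were 0.208% and 0.537% and for BAT 1.07% and 0.169%, so few calls were made at all in iWAT. At an unadjusted p under 0.05, 5 members (Mrc1, Folr2, Clec10a, F13a1 and Cd163) were lower in iWAT and 0 higher, where 9.29% and 7.25% of all genes were. In eWAT Mrc1, Folr2 and F13a1 were lower and Lyve1 was higher (7.82% and 9.81% of all genes). In BAT Mrc1 and Folr2 were lower and 0 members higher (8.64% and 4.56% of all genes). DESeq2, with the same thresholds, called 3 members lower in iWAT (Mrc1, Folr2 and Clec10a) and 0 higher, beside 3.42% and 1.15% of all genes. It called Folr2 lower and Lyve1 higher in eWAT, beside 1.23% and 2.78%, and Mrc1 and Folr2 lower in BAT, beside 2.65% and 1.06%. The median log2 fold change of the members was -0.40, -0.22 and -0.14 (iWAT, eWAT, BAT), where that of all genes tested was 0.03, -0.01 and -0.03.

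**Figure D2:**
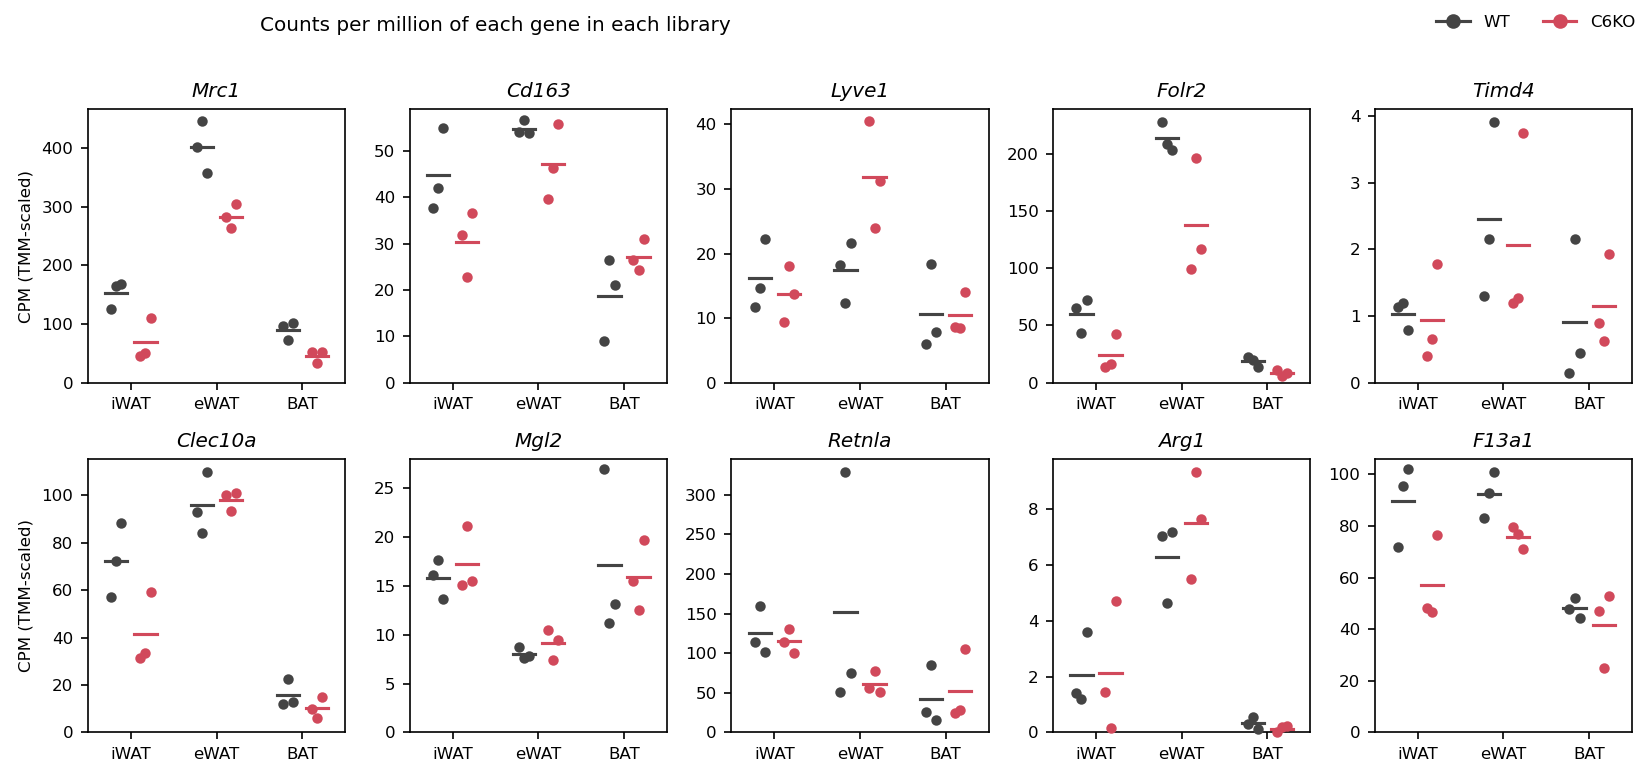
CPM of each gene in every library, with 1 panel per gene, a linear axis from 0 and the depots side by side; grey is WT, red is C6KO, points are libraries and bars are means of 3. C6KO points of Mrc1 and Folr2 lay under the WT points in all 3 depots, those of Lyve1 lay above them in eWAT, and Retnla had 1 high WT library in eWAT at 329 CPM.

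Counted by library, Mrc1, Folr2 and Cd163 were lower in each C6KO library than in each WT library of iWAT, 3 of 10 members where 12.3% of all genes lay so, and 0 members lay wholly higher (10.9% of all genes). In eWAT this held for Mrc1, Folr2 and F13a1 among lower genes and Lyve1 among higher ones, beside 11.6% and 11.6% of all genes. In BAT it held for Mrc1 and Folr2 of 8 tested, beside 12.3%, and for 0 members on the higher side, beside 7.45%.

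Mrc1, the mannose receptor, was lower in C6KO libraries throughout. In iWAT, WT libraries had 126, 164 and 168 CPM and C6KO libraries 44.8, 51.1 and 110 CPM. The groups did not overlap, and C6KO replicate 3 lay closest to WT. The log2 fold change was -1.15 (SE 0.342, edgeR adjusted p = 0.199, DESeq2 adjusted p = 0.00698). Without C6KO replicate 3 it was -1.67, with an edgeR adjusted p of 0.000589. In eWAT, WT libraries had 402, 445 and 357 CPM and C6KO libraries 282, 264 and 304 CPM, again without overlap. The log2 fold change there was -0.50 (SE 0.121, edgeR adjusted p = 0.0741), smaller than the fold of 1.5 asked of a call, though its DESeq2 adjusted p was 0.00532. In BAT, 96.6, 72.5 and 102 CPM in WT stood against 52.5, 33.2 and 52.6 CPM in C6KO. All C6KO libraries were lower, with a log2 fold change of -0.96 (SE 0.211, edgeR adjusted p = 0.0714, DESeq2 adjusted p = 0.00397). Without WT replicate 2 edgeR gave -1.07 with an adjusted p of 0.042, and in that setting it called 1.05% of all genes lower. That replicate had the lowest WT value, so leaving it out widened the gap, and this fit is no separate support.

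Folr2, the folate receptor of resident macrophages, showed the same order of groups. In iWAT, WT libraries had 65.2, 43.5 and 72.2 CPM and C6KO libraries 13.5, 16 and 42.4 CPM. The highest C6KO library, replicate 3, fell just short of the lowest WT library. The log2 fold change was -1.33 (SE 0.454, edgeR adjusted p = 0.236, DESeq2 adjusted p = 0.0131), and -2.03 without that library (edgeR adjusted p = 0.00158). In eWAT, 228, 209 and 204 CPM in WT stood against 99.1, 197 and 117 CPM in C6KO. Replicate 2 of C6KO was close to WT, and the log2 fold change was -0.63 (SE 0.232, edgeR adjusted p = 0.213, DESeq2 adjusted p = 0.048). Leaving that library out gave -0.96 with an edgeR adjusted p of 0.0173, in a fit that called 0.616% of all genes lower. It was the C6KO library nearest WT, so leaving it out widened the gap, and this fit is no separate support. In BAT, WT libraries had 22.3, 19.8 and 14 CPM and C6KO libraries 10.9, 5.84 and 8.68 CPM, without overlap and with a log2 fold change of -1.14 (SE 0.279, edgeR adjusted p = 0.0982, DESeq2 adjusted p = 0.0177).

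Cd163, the haemoglobin scavenger receptor, had estimates of both signs. In iWAT it had 37.6, 42.0 and 55.0 CPM in WT and 31.8, 22.8 and 36.6 CPM in C6KO. C6KO libraries were all lower, by a narrow gap, and the log2 fold change was -0.56 (SE 0.205, edgeR adjusted p = 0.236). In eWAT, 54.2, 56.6 and 53.8 CPM in WT overlapped 39.7, 46.3 and 55.8 CPM in C6KO (log2 fold change -0.21, SE 0.132). In BAT the estimate was positive, at 0.52 (SE 0.369, edgeR adjusted p = 0.613), with 8.90, 26.5 and 21.1 CPM in WT and 26.5, 24.3 and 30.9 CPM in C6KO. That difference rested on the low value of WT replicate 1, without which it was 0.21.

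Lyve1, the hyaluronan receptor of perivascular macrophages and of lymphatic endothelium, was higher in C6KO in eWAT. WT libraries had 18.3, 12.3 and 21.7 CPM there and C6KO libraries 40.6, 23.9 and 31.3 CPM. The groups did not overlap, and the log2 fold change was 0.88 (SE 0.251, edgeR adjusted p = 0.123, DESeq2 adjusted p = 0.00982). With the replicate number as a block edgeR called it, at an adjusted p of 0.0201, but the numbers were not taken to pair samples. Some markers of lymphatic endothelium were higher as well. Of 6 such genes in eWAT, 5 had a positive estimate, edgeR called Mmrn1 higher, and DESeq2 called Mmrn1 and Flt4 higher. Mmrn1 had 3.68, 3.44 and 2.80 CPM in WT and 7.48, 8.23 and 8.74 CPM in C6KO, a log2 fold change of 1.31 (SE 0.204, edgeR adjusted p = 0.0419). Summed over the list, the level was 60.4 to 74.0 CPM in WT and 72.6 to 87.4 CPM in C6KO, which overlap, no marker was at 0, and Prox1, the defining factor of these cells, had means of 0.917 and 1.41 CPM. Their part in the Lyve1 result was not tested. In iWAT, Lyve1 had 11.7, 14.7 and 22.2 CPM in WT and 9.41, 18.1 and 13.8 CPM in C6KO, and in BAT 5.99, 18.4 and 7.82 against 8.69, 8.45 and 14.1 CPM. Both of these pairs of groups overlapped, with log2 fold changes of -0.23 (SE 0.296) and -0.06 (SE 0.447).

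Timd4, the phosphatidylserine receptor of long-lived macrophages, was scarce in all groups. Its counts per library ran from 7 to 31 (iWAT), from 22 to 74 (eWAT) and from 1 to 23 (BAT). The groups overlapped in each depot, and the log2 fold changes of -0.13 (SE 0.615) in iWAT and -0.24 (SE 0.554) in eWAT were smaller than their standard errors. A difference in Timd4 was not detectable at this depth.

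Of the lectins, Clec10a had lower values in C6KO in iWAT and Mgl2 did not. Clec10a had 56.9, 72.1 and 88.1 CPM in WT iWAT and 31.5, 33.6 and 59.2 CPM in C6KO. C6KO replicate 3 lay inside the WT range, and the log2 fold change was -0.80 (SE 0.265, edgeR adjusted p = 0.216, DESeq2 adjusted p = 0.0473). Without that library it was -1.16, with an edgeR adjusted p of 0.00768. Its eWAT levels, 92.9, 84.0 and 110 CPM in WT and 100, 93.2 and 101 CPM in C6KO, overlapped (log2 fold change 0.04, SE 0.119). In BAT it had 12, 22.5 and 13 CPM in WT and 9.84, 5.93 and 14.9 CPM in C6KO, with overlap and a log2 fold change of -0.64 (SE 0.38). Mgl2 stayed between -0.08 and 0.18 on the log2 fold change scale across depots, with standard errors of 0.185 to 0.325. In iWAT it had 16.1, 17.7 and 13.7 CPM in WT and 15.1, 21.1 and 15.5 CPM in C6KO. Both lectins are also made by conventional dendritic cells. The 7 markers of those cells summed to 30.1 to 37.9 CPM in WT and 30.4 to 37.5 CPM in C6KO iWAT, with none at 0, and edgeR and DESeq2 called 0 of 7 there, with 0 at an unadjusted p under 0.05. In BAT, WT replicate 2, which had the highest Clec10a, also had the highest sum of those markers, 119 CPM against 35.8 and 32.3. Its Mgl2 was the lowest of the WT libraries, 11.2 CPM against 27.0 and 13.2. In eWAT, WT replicate 2 had the highest sum, 95.2 CPM against 28.9 and 57.5, and the lowest Clec10a of WT, 84.0 CPM. The part of dendritic cells in the values of both lectins was not tested.

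Of the products of alternative activation, Retnla and Arg1 were not called by either tool in any depot where they were tested. Retnla, which encodes RELMα, had 114, 160 and 102 CPM in WT iWAT and 114, 131 and 100 CPM in C6KO. These values overlapped, with a log2 fold change of -0.11 (SE 0.183, edgeR adjusted p = 0.794). In eWAT, WT libraries had 51.0, 329 and 75.3 CPM and C6KO libraries 56.0, 77.1 and 51.3 CPM. A single WT library, replicate 2, set the estimate: it was -1.31 (SE 0.816, edgeR adjusted p = 0.512) with that library and -0.03 without it. The same library had the highest sum of dendritic cell markers (95.2 CPM against 28.9 and 57.5 in the other WT libraries) and of genes of classical activation (233 against 109 and 129 CPM), and their part in the Retnla value was not tested. In BAT, 26.0, 84.8 and 16.1 CPM in WT stood against 24.0, 28.9 and 105 CPM in C6KO, with 1 high library in each group and a log2 fold change of 0.29 (SE 0.965). Of these, WT replicate 2 had the highest dendritic cell sum of its group, 119 CPM. C6KO replicate 3 did not, with 43.7 CPM against 50.9 CPM in replicate 1, and the part of these cells was not tested.

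Arg1, which breaks down arginine, was near the floor of detection outside eWAT. In eWAT it had 7.03, 4.62 and 7.18 CPM in WT and 5.48, 9.31 and 7.65 CPM in C6KO, with overlap and a log2 fold change of 0.26 (SE 0.253, edgeR adjusted p = 0.673). In iWAT it had 1.42, 1.19 and 3.58 CPM in WT and 1.46, 0.165 and 4.70 CPM in C6KO (log2 fold change 0.02, SE 0.943), and in BAT at most 6 counts in any library. Hepatocytes make Arg1 too, and their markers were present in iWAT. The 8 hepatocyte markers summed to 14.9, 10.5 and 46.4 CPM in WT and 44.0, 42.9 and 250 CPM in C6KO, with none at 0. Replicate 3 of each genotype had the highest sum and the most Arg1. C6KO replicate 2, with a sum of 42.9 CPM, had the least Arg1, 0.165 CPM. In eWAT their sum was 3.64 to 9.71 CPM in WT and 22.6 to 70.3 CPM in C6KO, Otc being at 0 in WT, and edgeR called Ttr higher (log2 fold change 3.5, SE 0.592, edgeR adjusted p = 0.0432). Of 5 tested there by edgeR, 4 were higher at an unadjusted p under 0.05, and DESeq2 called 6 of the 8 higher. In WT mice, eWAT libraries had lower hepatocyte sums than iWAT libraries and more Arg1. The part of hepatocytes in the Arg1 values was not tested.

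F13a1, the factor XIII A chain, had 72.0, 95.3 and 102 CPM in WT iWAT and 48.2, 46.6 and 76.6 CPM in C6KO. C6KO replicate 3 again lay inside the WT range, and the log2 fold change was -0.65 (SE 0.213, edgeR adjusted p = 0.208), or -0.92 without that library (edgeR adjusted p = 0.011). In eWAT, 83.2, 92.6 and 101 CPM in WT stood above 79.6, 76.7 and 71.0 CPM in C6KO without overlap, by a log2 fold change of -0.28 (SE 0.109, edgeR adjusted p = 0.217). In BAT the groups overlapped, with 47.7, 52.1 and 44.4 against 47.0, 24.9 and 52.8 CPM. Platelets also carry F13a1, and 6 platelet markers summed to 5.32 to 8.12 CPM in WT and 5.04 to 8.29 CPM in C6KO iWAT, with Gp6 at 0 in both. In eWAT the sums were 9.59 to 10.8 and 10.3 to 14.3 CPM, and their part in the F13a1 values was not tested. Without C6KO replicate 3, edgeR called 4 members lower in iWAT (Mrc1, Folr2, Clec10a and F13a1) in a fit that called 6.39% of all genes lower. That library was left out because its macrophage level lay nearest WT, which favours lower members. With all libraries edgeR called 0 of 10 members and 0.0206% of all genes lower.

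**Figure D3:**
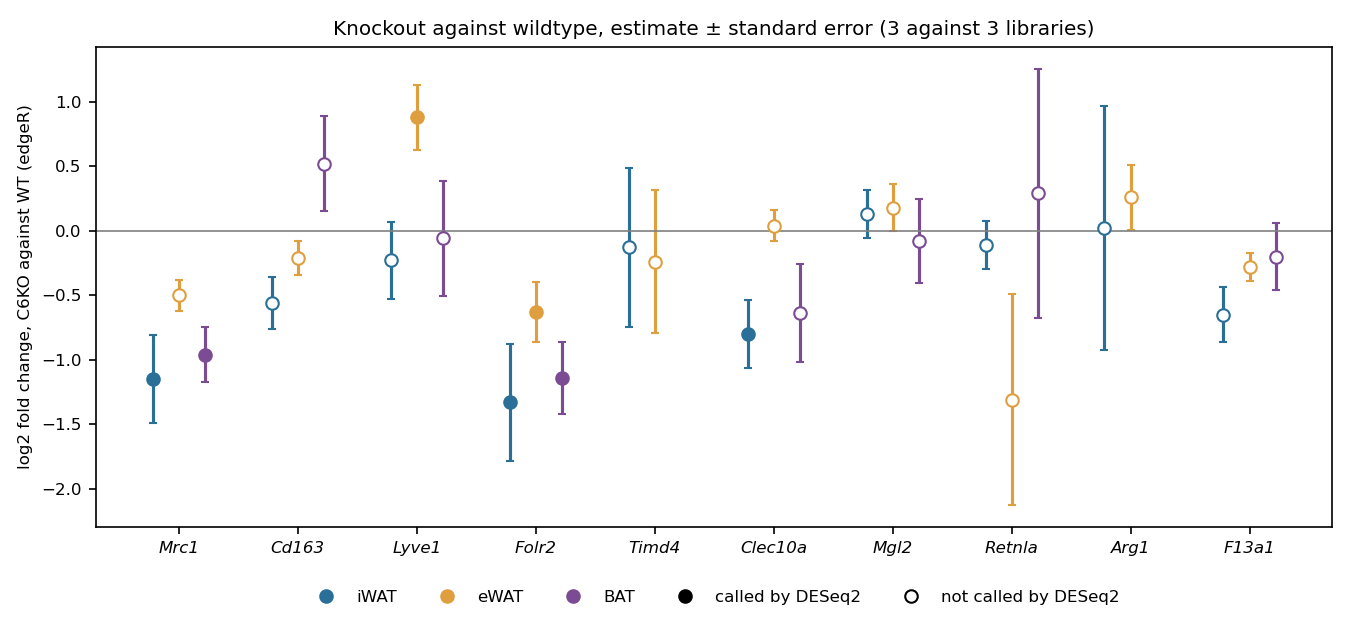
Log2 fold change of C6KO against WT (edgeR) with its standard error for each gene and depot, from 3 against 3 libraries; filled points were called by DESeq2 and open points were not, and Timd4 and Arg1 were not tested in BAT. Mrc1 and Folr2 lay below 0 in all 3 depots, at -1.15 and -1.33 in iWAT, while Mgl2 stayed near 0.

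The size of the C6KO difference was then compared between depots as an interaction in 1 edgeR fit of all libraries. Neither edgeR nor DESeq2 called a member in any of the 3 comparisons, where edgeR called 0.0%, 0.183% and 0.536% of all genes for eWAT against iWAT, BAT against iWAT and BAT against eWAT. At an unadjusted p under 0.05 the fits held 0, 1 and 0 members, beside 5.47%, 9.93% and 11.2% of all genes. The member was Cd163, whose log2 fold change was higher in BAT than in iWAT by 1.08 (SE 0.391, edgeR adjusted p = 0.351). For Lyve1 the difference of eWAT over iWAT was 1.11 (SE 0.537, edgeR adjusted p = 0.909), and for Mrc1 and Folr2 it was 0.65 (SE 0.38) and 0.70 (SE 0.529). These intervals are wide, so the data do not show that the depots responded alike.

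Genes of macrophages in general had lower values in C6KO in each depot, so each member was also expressed relative to their mean log2 CPM in the same library, an alternative added after the data were seen. That mean was 6.76 ± 0.14 in WT and 5.24 ± 0.87 in C6KO iWAT. For eWAT it was 8.55 ± 0.22 and 7.95 ± 0.21, and for BAT 5.45 ± 0.18 and 4.23 ± 0.25 (log2 CPM, mean ± SD, n = 3). Relative to it, the Mrc1 and Folr2 libraries of both genotypes overlapped in every depot. The relative level of Mrc1 was 0.49 ± 0.10 in WT and 0.74 ± 0.18 in C6KO iWAT, 0.09 ± 0.11 and 0.20 ± 0.25 for eWAT, and 1.03 ± 0.21 and 1.27 ± 0.13 for BAT (log2, SD, n = 3). For Folr2 the difference between C6KO and WT was 0.03, -0.09 and 0.07 (iWAT, eWAT, BAT).

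Other members stood higher relative to macrophage genes in C6KO. Mgl2 was at -2.77 ± 0.28 in WT and -1.14 ± 1.0 in C6KO iWAT, at -5.53 ± 0.29 and -4.76 ± 0.45 for eWAT, and at -1.45 ± 0.49 and -0.26 ± 0.17 for BAT, and its groups did not overlap in any depot. The same held for Cd163, with differences of 0.95, 0.38 and 1.89 (iWAT, eWAT, BAT). In all, 5 of 10 members stood higher without overlap in iWAT (Cd163, Timd4, Clec10a, Mgl2 and F13a1), 5 in eWAT (Cd163, Lyve1, Clec10a, Mgl2 and Arg1) and 3 in BAT (Cd163, Mgl2 and F13a1). Of all genes tested, 76.7%, 62.1% and 82.0% stood so, since a gene whose level is the same in both genotypes does, and the members' counts lie under that background. The median difference of the members was 0.90, 0.35 and 1.07 in that order of depots, beside 1.53, 0.59 and 1.20 for all genes.

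**Figure D4:**
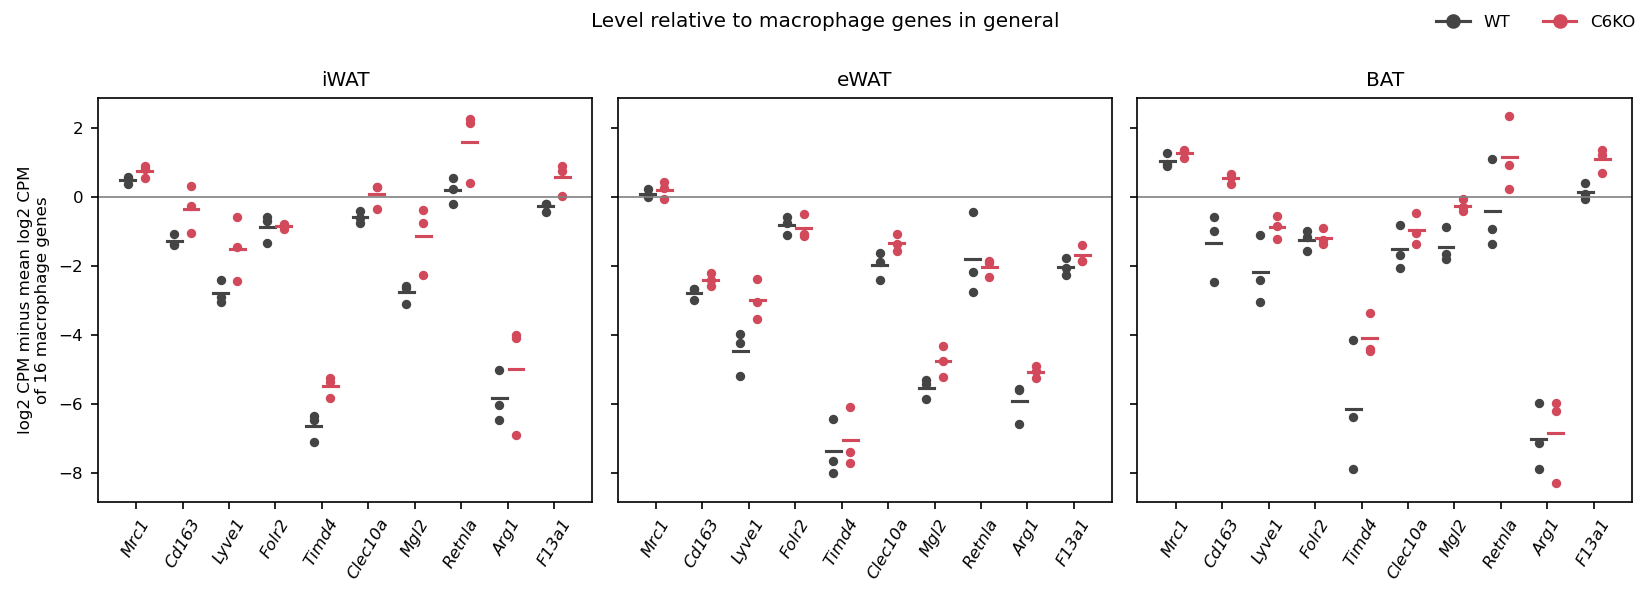
Level of each gene relative to macrophage genes in general, as log2 CPM minus the mean log2 CPM of 16 such genes in the same library; points are libraries, bars are means of 3, grey is WT and red is C6KO. Mrc1 and Folr2 overlapped between genotypes in each depot, and Mgl2 and Cd163 stood higher in C6KO without overlap in all 3.

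Lists of related genes were set beside the members. Of 20 further genes of resident macrophages, 19 were tested in iWAT and edgeR called 0, with 6 lower and 1 higher at an unadjusted p under 0.05 and 3 called lower by DESeq2 (Ccl8, Stab1 and Siglec1). The first genes of that list, Cbr2 (a carbonyl reductase) and Pf4 (a chemokine), had log2 fold changes of -0.31 (SE 0.292) and -0.62 (SE 0.364) in iWAT. In eWAT edgeR called 1 of 20 lower and 1 higher, with 6 lower and 3 higher at an unadjusted p under 0.05, and DESeq2 called 3 lower and 2 higher. The one that edgeR called higher was Ltc4s, the leukotriene C4 synthase, at 61.7, 52.4 and 53.9 CPM in WT and 99.5, 100 and 77.1 CPM in C6KO (log2 fold change 0.72, SE 0.125, edgeR adjusted p = 0.0436). The groups did not overlap, and DESeq2 called it too. The others called by DESeq2 were Siglec1 and Fcrls, lower, and Ednrb, higher. In BAT edgeR called 0 of 17, with 4 lower and 0 higher at an unadjusted p under 0.05 and 2 called lower by DESeq2, Maf and Pf4 (log2 fold change of Pf4 -1.26, SE 0.297). The medians of this list were -0.34, -0.13 and -0.35 (iWAT, eWAT, BAT).

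Genes of IL-4 and IL-13 signalling gave few calls. The ligands were hardly detected, with Il4 at most 0.264 CPM and Il13 at most 0.178 CPM in any library. Of the 16 genes 14 were tested in each depot, and edgeR called 0 in each, with 1 lower and 1 higher at an unadjusted p under 0.05 in either white depot, and 3 higher and 1 lower in BAT. DESeq2 called 0 in iWAT and eWAT. In BAT it called Il2rg, the shared receptor chain, lower and Irf4, a factor downstream of STAT6, higher. Both are levels in whole tissue, and which cells the transcripts came from was not tested. Stat6 itself had log2 fold changes of 0.11 (SE 0.137), 0.09 (SE 0.0969) and 0.07 (SE 0.208), and Il4ra of 0.47 (SE 0.278), 0.31 (SE 0.171) and -0.11 (SE 0.16). The medians of the list were -0.02, -0.09 and 0.07.

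Of 16 further genes of alternative activation, edgeR called 0 of 11 tested in iWAT and 0 of 14 in eWAT, with 3 lower and 0 higher, and 4 lower and 1 higher, at an unadjusted p under 0.05. DESeq2 called Egr2, Cd200r1 and Msr1 lower in iWAT, Il10 lower in eWAT, and Egr2, Cd200r1 and Msr1 lower in BAT. In BAT edgeR called 1 of 9, Cd200r1, an inhibitory receptor of macrophages. It had 8.32, 7.48 and 4.96 CPM in WT and 0.895, 0.988 and 0.750 CPM in C6KO BAT, a log2 fold change of -2.94 (SE 0.372, edgeR adjusted p = 0.00968). Cd200r1 was also low in C6KO iWAT, with 15.5, 16.1 and 16.7 against 2.80, 3.90 and 6.19 CPM (log2 fold change -1.90, SE 0.275, edgeR adjusted p = 0.0853, DESeq2 adjusted p = 3.25e-07). Chil3, which encodes the lectin Ym1, had at most 3.53 CPM in any library, and Chil4 was listed at 0 in C6KO iWAT and in BAT.

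The lists of macrophages in general and of lipid-associated macrophages had lower medians than the members in iWAT and BAT. In BAT, edgeR called 7 of 16 general genes and 7 of 11 lipid-associated genes lower and 0 higher, with medians of -1.34 and -2.81, where 0 of 8 members were called and their median was -0.14. Cd68, a lysosomal protein of macrophages, had 69.2, 50.8 and 55.5 CPM in WT and 18.9, 9.52 and 14.8 CPM in C6KO BAT (log2 fold change -2.01, SE 0.25, edgeR adjusted p = 0.0096), and Adgre1, Mpeg1, Tyrobp and Lyz2 had log2 fold changes of -1.79, -1.61, -1.79 and -1.40. Trem2, a lipid receptor, had 34.7, 15.5 and 17.4 against 1.15, 1.26 and 3.11 CPM there (log2 fold change -3.58, SE 0.468, edgeR adjusted p = 0.0132). Atp6v0d2, a proton pump subunit, Itgax (CD11c) and Gpnmb, which had the smallest p of that list, stood at -4.05, -3.17 and -2.65, and Cd9 at -1.15 was not called. In iWAT edgeR called 0 of 16 and 0 of 11, with 14 and 8 lower at an unadjusted p under 0.05 and 8 and 3 called lower by DESeq2, and the medians were -1.38 and -1.45 beside -0.40 for the members. In eWAT edgeR again called 0 of both lists, with 15 and 3 lower at an unadjusted p under 0.05 and 6 and 0 called by DESeq2, and the medians were -0.58 and -0.22 beside -0.22. Of 12 genes of classical activation, edgeR called 0 of 8 in iWAT and 0 of 6 in BAT (2 and 3 lower at an unadjusted p under 0.05; DESeq2 called 0, and Cd86 and Ccl2 lower). For eWAT it called 1 of 11, Ccl2, a chemokine that draws monocytes, higher (log2 fold change 0.73, SE 0.119, edgeR adjusted p = 0.0432), and DESeq2 also called Ccr2 lower. Nos2, the inducible nitric oxide synthase, had log2 fold changes of -0.52, 0.21 and -0.28 (SE 0.372, 0.394 and 0.214), and Tnf of -0.54 and -0.47 in the white depots (SE 0.441 and 0.274). Genes named from DESeq2 calls were chosen after their values were seen. Differences between lists are descriptions and were not tested.

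**Figure D5:**
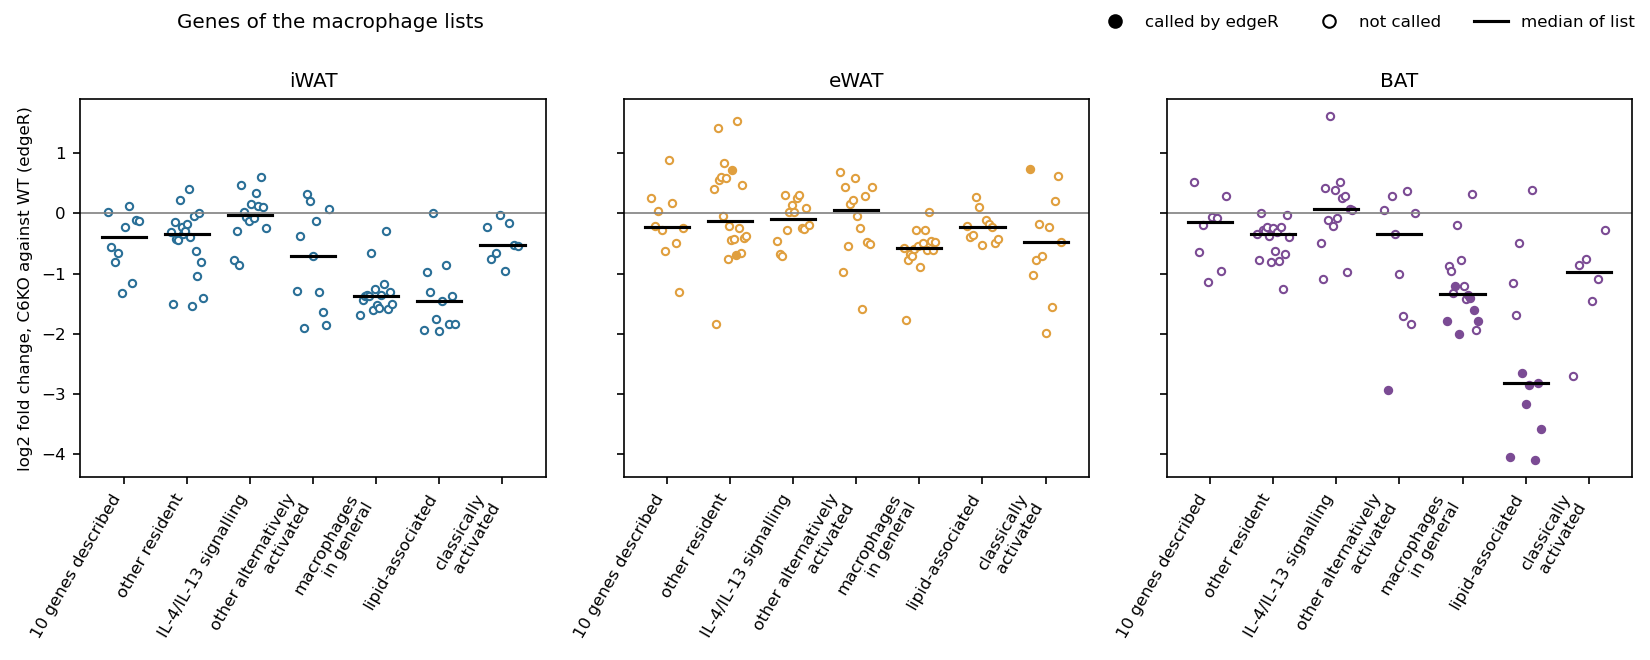
Log2 fold change of C6KO against WT (edgeR) for each tested gene of the 10 members and of 6 other lists in iWAT, eWAT and BAT. Among these, the IL-4/IL-13 signalling list holds ligands, receptors, kinases and transcription factors, not macrophage markers. Filled points were called by edgeR, open points were not, and black lines are list medians. The members' medians of -0.40, -0.22 and -0.14 lay nearer 0 than those of macrophages in general, at -1.38, -0.58 and -1.34.

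Other cell types gave a few values beside these. Adipocyte markers summed to 23700 to 26800 CPM in WT and 31400 to 32600 CPM in C6KO iWAT, and to 9050 to 10900 against 12500 to 16300 CPM in eWAT, where edgeR called Plin1 and Lipe higher, and none of the 6 markers was at 0. In BAT the ranges of 14900 to 24900 and 17000 to 19900 CPM overlapped, and edgeR called 1 marker, Lep, lower. Eosinophils, a source of interleukin-4 in fat, left few reads: their 7 markers summed to at most 13.7 CPM in any library, and Ear6 was at 0 in every group and Epx in all but WT eWAT. The part of these cells in the members' values was not tested.

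The genes whose pattern was most like that of Mrc1 and of Retnla were looked up among the 11690 genes that averaged 5 CPM or more, by the correlation of log2 CPM over the 18 libraries after the mean of each depot was removed. These libraries share depots and genotypes, so the values describe likeness only. Closest to Mrc1 were Mpeg1 (r = 0.975), a pore-forming protein that is among the 16 general macrophage genes, Prcp (r = 0.97), a carboxypeptidase, and Fcgr3 (r = 0.969), an Fc receptor. Mpeg1 had 133, 99.5 and 135 CPM in WT and 48.7, 30.9 and 40 CPM in C6KO BAT (log2 fold change -1.61, SE 0.201, edgeR adjusted p = 0.00968). Among members, Folr2 (0.883), F13a1 (0.828) and Clec10a (0.743) were the most like Mrc1, and Cd163 (0.136), Retnla (0.0129), Mgl2 (-0.000272) and Lyve1 (-0.0679) the least. Retnla was most like Lyz1 (r = 0.844), a lysozyme gene, Gm4951 (r = 0.798) and Sp110 (r = 0.777), and no member came above 0.295 with it. All 3 of these genes were highest among eWAT libraries in WT replicate 2, as Retnla was, with 37.8, 35.6 and 28.8 CPM against at most 13.2, 6.28 and 21.6 CPM in the others.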

How the data were processed

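RNA of 18 whole adipose depots, 3 libraries for each genotype and depot, was enriched for poly(A) and sequenced on a NextSeq 2000. The authors aligned reads to mm10 with STAR at default settings and counted them over exons with HOMER, condensed to 1 transcript per gene. The deposited values are these raw counts, with 25124 genes in each of 3 tables. Tool versions, the annotation and the strand used in counting are not given in the sources used here. For 2619 genes, none of them a member, another transcript was counted in different tables.

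Samples were grouped by their labels, and table columns were matched to samples by depot, genotype and number. C6KO was compared with WT in each depot with edgeR 4.0.16 (R 4.3.3; filterByExpr, TMM, robust quasi-likelihood test, two-sided) on 14533, 14889 and 13595 genes in iWAT, eWAT and BAT. WT depots, and differences in the C6KO effect between depots, came from 1 fit of all 18 libraries on 15866 genes. Calls needed a Benjamini-Hochberg adjusted p under 0.05 and, except for differences in effect, a fold change of at least 1.5. DESeq2 1.42.0 was the alternative tool. CPM used TMM factors over all libraries, and log2 CPM a prior count of 1. Because each group had 3 libraries, an adjusted p rests on the variance that edgeR shares across genes. The scripts were tested on simulated data.

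The members and lists were chosen with earlier results of these data known. The values of 1 gene of the list of further resident macrophage genes are not reported here. Genes named beyond the members and Casp6 were the first 2 of each macrophage list and of the IL-4/IL-13 signalling list. Added to these were up to 3 further genes per list and depot that edgeR called (smallest p first), and the 3 genes most like Mrc1 and Retnla by correlation. Of the marker lists of other cells, the genes that bear on a result were named after their values were seen. Alternatives were DESeq2, the size factors of DESeq2 inside the edgeR fit, scaling by library totals alone, testing without a filter, at least 10 counts in every library, no fold minimum, a test against a fold of 1.5, another set of libraries in the fit, the replicate number as a block, and each library left out. Promoter windows are RefSeq entries on GRCm38.p6, found for 7 of 10 members. Same-numbered samples of both genotypes correlated at 0.0234 to 0.0713 (iWAT), -0.0816 to 0.146 (eWAT) and -0.458 to -0.148 (BAT) after group means were removed, so the numbers were not taken to pair samples. Same-numbered samples of different depots within a genotype correlated at -0.0655 to 0.219. Their mean was highest for eWAT and iWAT in WT, 0.118 against -0.0589 for other numbers. Whether the numbers mark animals across depots is not given.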

Additional observations from a re-analysis of the deposited data

How the results depend on the processing

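Calls among the members depended on the tool and on single libraries. The share of all genes called moved too: in iWAT edgeR called 0.0206% lower with all libraries and 6.39% without C6KO replicate 3. For most settings that share is not given here, so the counts below describe the settings and not the members alone. For C6KO against WT, where edgeR called 0 members in each depot, DESeq2 called 3, 2 and 2 (iWAT, eWAT, BAT). A single fit of all 18 libraries called 1 in iWAT, Mrc1 (adjusted p = 0.0399), and no filter on low counts called 1 in BAT, Mrc1 (0.0454). The replicate block called 1 in eWAT, Lyve1 (edgeR adjusted p = 0.0201), and 1 in BAT, Mrc1 (0.0475), but the numbers were not taken to pair samples. With each library left out in turn, 0 to 4, 0 to 1 and 0 to 1 members were called in the same order, and their median log2 fold change ran from -0.95 to -0.33, from -0.30 to -0.03 and from -0.53 to 0.09. Between WT depots, 3 members were called in eWAT against iWAT (3 to 3 with a library left out, and 5, with Timd4 and Arg1 added, when only the compared libraries were fitted), 6 in BAT against iWAT (4 to 7) and 7 in BAT against eWAT (7 to 10). Retnla was called in BAT against eWAT under total counts (-2.12), at least 10 counts (-1.91), the block (-1.75) and DESeq2 (-1.88). Of the differences in the C6KO effect, 0 to 1 was called for eWAT against iWAT with a library left out (Mrc1, 1.17, edgeR adjusted p = 0.0392, without iWAT C6KO replicate 3) and 0 for both others.

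With total counts as the only scaling, the median log2 difference of all genes between WT depots was 0.149, -0.131 and -0.262 (eWAT against iWAT, BAT against iWAT, BAT against eWAT), against 0.005, 0.011 and 0.026 with TMM. It turned the sign of Arg1 in iWAT (-0.02), of Clec10a in eWAT (-0.01) and of Mgl2 in BAT against iWAT (-0.06). The replicate block turned Arg1 in iWAT (-0.46), Lyve1 in BAT (0.10) and Retnla in eWAT against iWAT (-0.21). With a library left out, log2 fold changes of C6KO against WT that changed sign ran in iWAT from -1.36 to 0.69 for Arg1, -0.24 to 0.10 for Retnla, -0.48 to 0.07 for Lyve1, -0.97 to 0.23 for Timd4 and -0.04 to 0.21 for Mgl2. They ran in eWAT from -0.04 to 0.15 for Clec10a and -0.99 to 0.26 for Timd4, and in BAT from -0.32 to 0.62 for Lyve1, -0.29 to 0.39 for Mgl2, -0.67 to 1.37 for Retnla and -0.40 to 0.09 for F13a1. Between WT depots they ran from -0.99 to 0.69 for Retnla, -0.09 to 0.40 for Lyve1 and -0.09 to 0.14 for F13a1 (eWAT against iWAT), and from -0.38 to 0.33 for Mgl2 and -1.72 to 0.34 for Timd4 (BAT against iWAT). Differences in effect, BAT against iWAT, ran from -0.12 to 0.82 for Lyve1, -0.23 to 0.51 for Clec10a, -0.11 to 0.87 for Folr2 and -0.05 to 0.70 for Mrc1. The causes were not tested. BAT libraries were the shallowest, and 3 libraries a group limit what could be called.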
